A study of Mus musculus with 6 samples.

Results

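The genes described here encode proteins of the primary granule and of the early granulocytic stage: Mpo, Elane, Prtn3, Ctsg, Ms4a3, Nkg7, Plac8, Hp and Calr. They were taken by name, as every probe set whose platform annotation gave exactly 1 gene symbol, that of one of these genes. All 9 genes were found, with 11 probe sets (3 for Calr and 1 for each of the others), among 34958 probe sets of a single name that stood for 18194 genes. No filter on low signals was applied, so all 9 entered the test.

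Bone marrow was flushed from the femurs, tibiae and ilia of C57BL6 mice, and common myeloid progenitors (CMP) were sorted by flow cytometry after staining with H2-DCFDA, a dye that fluoresces once reactive oxygen species (ROS) have oxidised it. Low-ROS and high-ROS CMP each made up 15% to 20% of all CMP, and 3 arrays were run for each group, with no treatment and no genetic change named in the labels. The series addresses the role of ROS in the step from CMP to megakaryocyte-erythrocyte progenitors. Neither the age of the mice nor the origin of the 3 samples of a group (separate mice, sorts or portions of the same RNA) is stated in the labels. The p-values therefore cover the spread among these arrays alone, which may be of technical origin. Signals of single arrays are listed in the order of replicates 1, 2 and 3.

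Array medians of all probe sets were 40.4 to 42.5, a level read here as near background, since the files carry no detection calls to set a limit of detection. The 3' to 5' signal ratio of the Gapdh control probe sets, which reflects RNA integrity and labelling, was 2.54 to 3.19 on the low-ROS arrays and 2.997 to 4.53 on the high-ROS arrays, with the highest value on high-ROS replicate 3. The same ratio of the beta-actin control probe sets differed little, at 0.976 to 1.05 on the low-ROS and 1.03 to 1.06 on the high-ROS arrays. The progenitor markers Kit (group means of 642 and 545 for low-ROS and high-ROS CMP), Cd34 (417 and 584) and Fcgr3 (1719 and 1747) were clearly above background, and so was Il7r (735 and 720), a lymphoid receptor that a CMP gate excludes. Markers of mature neutrophils were bright in both groups, among them Camp (6924 and 6747), Ltf (5976 and 5474) and S100a9 (12944 and 12895). The eosinophil gene Prg2 (8046 and 7472), the red cell gene Slc4a1 (6109 and 4985) and the plasma cell gene Jchain (1235 and 1299) were also well above background, and were named after their values were seen. Other genes of their marker lists were much dimmer, among them Rhag (184 and 200), Ms4a1 (149 and 177) and Fcer1a (72.4 and 76.2). Hba-a1 (2.55 and 4.58) lay below the array medians. Of 8 erythroid markers, 3 had a higher and 5 a lower high-ROS mean, 0 passed, and the median log2 fold change (high-ROS minus low-ROS, on log2 of signal plus 16) was -0.05. Slc4a1 (-0.30) and Epor (-0.34) had groups that did not overlap, with high-ROS CMP below. Of 8 B and plasma cell markers, 6 were higher, 2 lower and 0 passed (median 0.03). Of 8 eosinophil, basophil and mast cell markers, 2 were higher, 6 lower and 0 passed (median -0.11). None of the 9 measured mature neutrophil markers passed the test, all 9 had the lower mean in high-ROS CMP, and their summed signal was 53694 to 58010 on the low-ROS arrays and 53126 to 55389 on the high-ROS arrays. In bulk RNA, a change in the number of cells of one type cannot be told apart from a change in the RNA that each cell holds. The part of RNA from mature neutrophils in the signals of the granule genes was not tested.

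The summed signal of 8 genes taken as megakaryocyte markers was 2442 to 2630 on the low-ROS arrays and 1065 to 1555 on the high-ROS arrays, without overlap. Most of this sum came from F2r and Pf4 (Pf4 group means of 1107 and 666). The mean of the centred log2 signals of the 8 genes did overlap. It was 0.30, 0.08 and 0.18 on the low-ROS and -0.38, -0.29 and 0.11 on the high-ROS arrays. Of these 8, 3 had a higher and 5 a lower high-ROS mean. F2r, a thrombin receptor whose use as a megakaryocyte marker in mice was not tested here, was called lower (1156 and 335, log2 fold change -1.78, limma adjusted p = 0.00791). The call held without high-ROS replicate 3 and was lost when any of the other 5 arrays was left out (adjusted p of 0.0632 to 0.122) and without the mean-variance trend (0.0712). Pf4 (log2 fold change -0.73) and Itga2b (-0.74) had groups that did not overlap and did not pass. Of 9 macrophage and monocyte markers, 6 had a higher and 3 a lower high-ROS mean and 0 passed, and their summed signal was 6597 to 7621 on the low-ROS arrays and 8013 to 9005 on the high-ROS arrays. Among them F13a1 (group means of 2483 and 3161, log2 fold change 0.34, adjusted p = 0.522) had groups that did not overlap. So had Csf1r (1186 and 1660, log2 fold change 0.49, adjusted p = 0.459). Most of the rise in the sum came from F13a1 and Csf1r. C1qa, Vcam1 (1633 and 1600) and Ccr2 (414 and 390) were the 3 with the lower mean. The part of these cell types in the signals of the granule genes was not tested.

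Primary (azurophil) granules are the first granules that a developing granulocyte makes, at the promyelocyte stage. They store myeloperoxidase, an enzyme that turns hydrogen peroxide and chloride into hypochlorous acid, together with serine proteases that digest microbes. Their genes are switched on early in granulocyte-monocyte progenitors under C/EBP, PU.1, MYB and RUNX factors and are shut off again before the secondary granules form, so their transcripts mark the granulocytic priming of a progenitor. Myeloperoxidase consumes hydrogen peroxide, which is itself among the ROS.

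None of the 9 genes passed the test of low-ROS against high-ROS CMP over all genes. At an adjusted p under 0.05 (limma, Benjamini-Hochberg over 18194 genes) 0 of the 9 were called, against 0.0605% of all genes (0.0165% higher and 0.0440% lower), and the smallest adjusted p among them was 0.575. At an unadjusted p under 0.05, 2 of the 9, Ctsg and Plac8, were higher and 0 lower, against 4.42% and 3.34% of all genes. Plac8 was just short of that limit in the limma fit of single probe sets (unadjusted p = 0.0509). Of the 9 genes, 7 had the higher mean in high-ROS CMP, as did 54.0% of all genes, and 2, Nkg7 and Calr, the lower mean. Ctsg, Prtn3 and Plac8 lay higher on each high-ROS array than on any low-ROS array, a pattern shown by 8.06% of all genes, and no gene of the 9 showed the opposite pattern, against 5.31%. The median log2 fold change (high-ROS minus low-ROS, on log2 of signal plus 16) of the 9 genes was 0.09, against 0.02 over all genes.

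The intervals of this fit set bounds on what could have been missed, given the spread among these arrays. The 95% interval of the fold change reached at most 1.45-fold higher, for Ctsg, and, with Calr left aside, no lower than 0.796 of the low-ROS level, for Nkg7. For Calr, the gene with the widest interval, it ran from 0.708 to 1.16 of the low-ROS level. A p above the threshold does not show that the groups were equal, but a change of 1.5-fold in either direction lay outside the interval of each of the 9 genes except, for Calr, on its dimmest probe set described further on. These bounds hold for this fit alone. With the log2 Gapdh ratio as a covariate the log2 fold change was 0.485 for Ctsg and 0.27 for Calr, and without high-ROS replicate 2 it was -0.31 for Calr. The intervals of those settings are not given here.

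**Figure D1:**
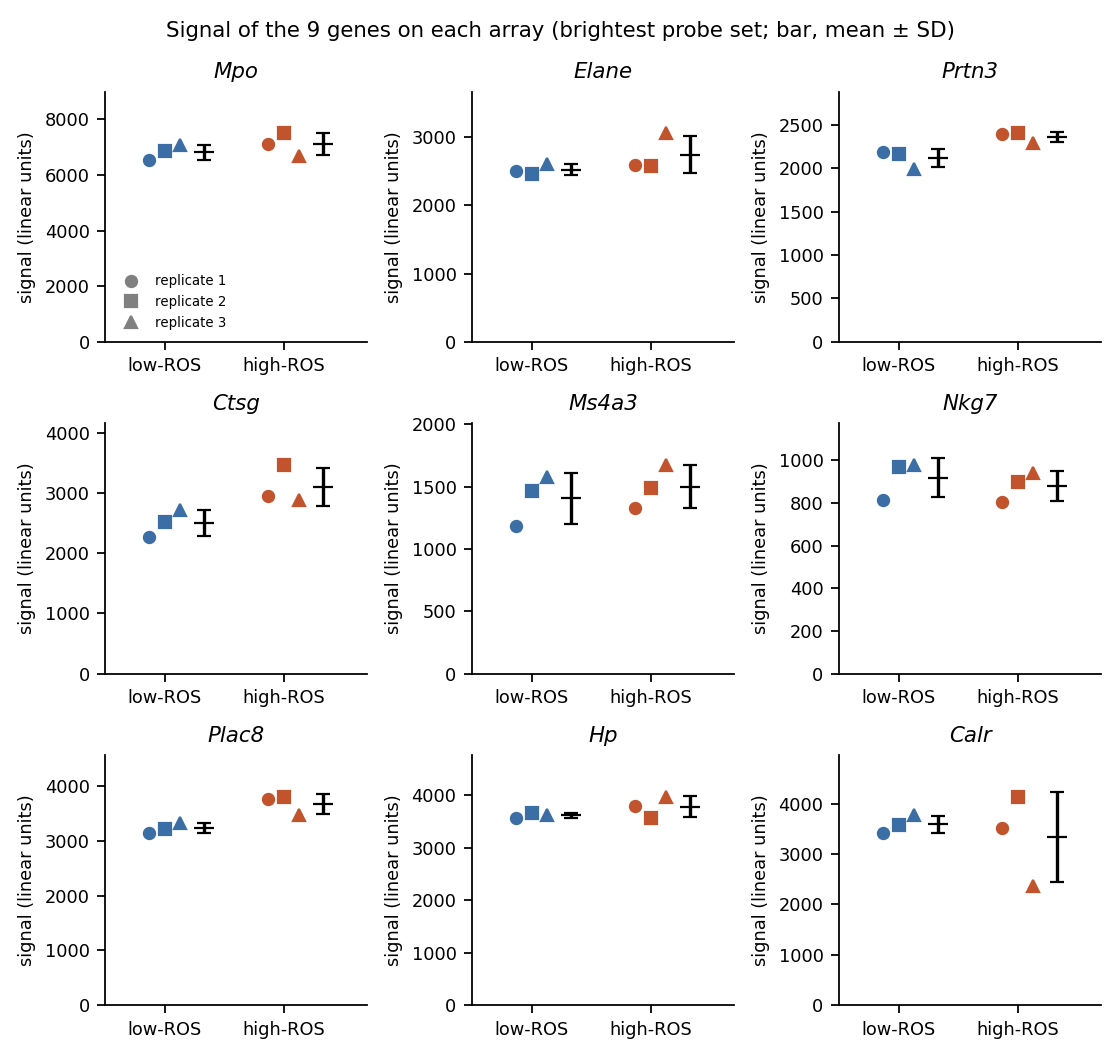
Signal in linear units (vertical axes, from 0) of the brightest probe set of each of the 9 genes on the 3 low-ROS (blue) and 3 high-ROS (orange) arrays, with the marker shape giving the replicate number and the black bar the mean ± SD. The groups are apart for Prtn3, Ctsg and Plac8 and overlap for the other 6 genes, and Calr on high-ROS replicate 3, at 2370.2, lies below all its other values.

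Mpo encodes myeloperoxidase, the most characteristic enzyme of the primary granule. Its signal was 6543, 6844 and 7078 on the low-ROS arrays and 7121, 7494 and 6694 on the high-ROS arrays. The groups overlapped, because high-ROS replicate 3 fell within the low-ROS range. The means were 6822 ± 268 (SD, n = 3) and 7103 ± 400 (SD, n = 3), a fold change of 1.04 with a 95% interval from 0.933 to 1.16 (adjusted p = 0.882). Mpo sits between Tspoap1 and Lpo in the RefSeq gene order. Lpo, which encodes lactoperoxidase, read 10.7 and 8.42 in the low-ROS and the high-ROS group, below the array medians. Tspoap1 read 106 and 150.

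Elane, Prtn3 and Ctsg encode neutrophil elastase, proteinase 3 and cathepsin G, which are related serine proteases that are activated on their way into the granule. Elane and Prtn3 are direct neighbours on chromosome 10, while Ctsg lies on chromosome 14 between the protease genes Mcpt8 and Gzme. Elane read 2505, 2455 and 2611 on the low-ROS arrays and 2586, 2580.2 and 3055 on the high-ROS arrays. Only high-ROS replicate 3 stood above the low-ROS range, and the other two high-ROS arrays fell inside it. The means were 2524 ± 79.9 and 2740.4 ± 272 (SD, n = 3 each), a fold change of 1.08 with an interval from 0.937 to 1.25 (adjusted p = 0.796).

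Prtn3 read 2183, 2163 and 1992 on the low-ROS and 2391, 2399 and 2291 on the high-ROS arrays. The groups did not overlap, and the gap between the highest low-ROS and the lowest high-ROS array was about as wide as the SD of the low-ROS arrays. The means of 2113 ± 105 and 2360.4 ± 60.1 (SD, n = 3 each) gave a fold change of 1.12 (interval 0.977 to 1.28, adjusted p = 0.689). Ctsg read 2275, 2519 and 2711 on the low-ROS and 2950.4, 3464 and 2885 on the high-ROS arrays. Every high-ROS array was above every low-ROS array, and Ctsg had the largest fold change of the 9 genes. Its means were 2502 ± 219 and 3100 ± 317 (SD, n = 3 each), 1.24-fold with an interval from 1.06 to 1.45 (log2 fold change 0.31 with an SE of 0.103, unadjusted p = 0.0125, adjusted p = 0.575). Mcpt8, next to Ctsg, read 407 and 366, and Gzme stayed near background at 5.2 and 5.89.

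**Figure D2:**
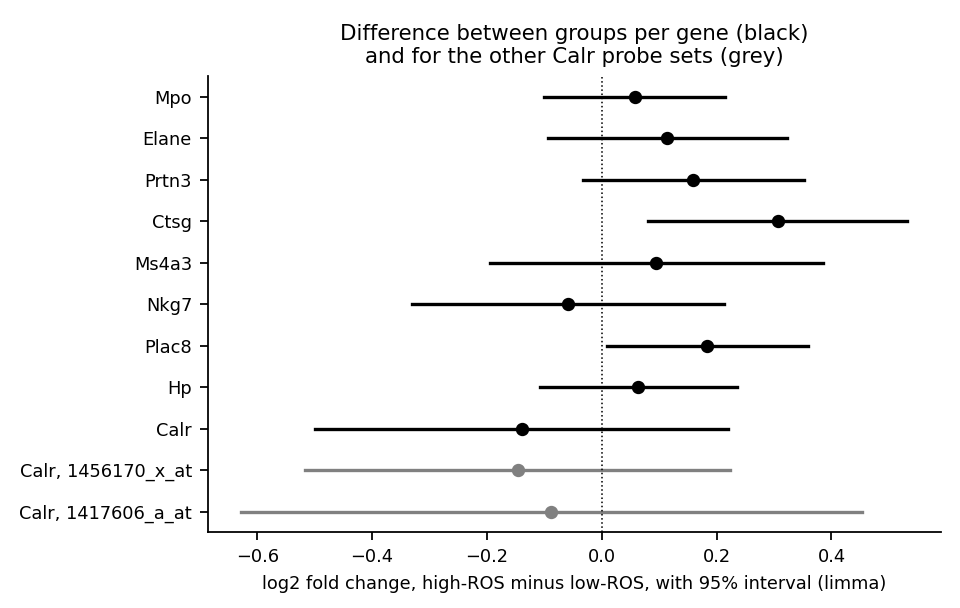
Log2 fold change (horizontal axis, high-ROS minus low-ROS) with its 95% interval from limma, for the 9 genes in black and for the other 2 Calr probe sets in grey. The intervals of Ctsg (0.08 to 0.53) and Plac8 (0.01 to 0.36) lie above 0 before adjustment, and all others include 0.

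The sequences before the start sites of Mpo, Elane, Prtn3 and Ctsg are shown because these genes share a product type and a stage, and because the first 3 share a run of letters. They are the 250 bases before the annotated start (RefSeq, GRCm38.p6), read 5′ to 3′ on the gene's strand. Capitals mark matches to GAGGAA or its longer form GAGGAAGT (the core letters of PU.1 sites), CAACGG (MYB) and TGTGGT (RUNX, which reads ACCACA on the other strand), searched on both strands.
Mpo, chr11:87793534-87793783, plus strand: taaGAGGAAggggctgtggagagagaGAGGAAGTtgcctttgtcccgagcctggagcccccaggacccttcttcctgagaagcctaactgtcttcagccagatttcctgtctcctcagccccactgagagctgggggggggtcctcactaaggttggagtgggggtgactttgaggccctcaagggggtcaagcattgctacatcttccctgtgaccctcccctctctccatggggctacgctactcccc
Elane, chr10:79886062-79886311, plus strand: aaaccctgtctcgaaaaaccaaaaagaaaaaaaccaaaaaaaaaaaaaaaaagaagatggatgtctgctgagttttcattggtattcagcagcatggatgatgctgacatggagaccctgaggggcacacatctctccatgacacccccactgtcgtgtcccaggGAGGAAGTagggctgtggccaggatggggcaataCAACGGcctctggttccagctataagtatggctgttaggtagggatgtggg
Prtn3, chr10:79879417-79879666, plus strand: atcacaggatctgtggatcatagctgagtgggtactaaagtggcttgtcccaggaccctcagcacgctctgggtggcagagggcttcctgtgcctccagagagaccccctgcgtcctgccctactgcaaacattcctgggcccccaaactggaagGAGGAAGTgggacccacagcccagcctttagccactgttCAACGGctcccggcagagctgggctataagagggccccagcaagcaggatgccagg
Ctsg, chr14:56102575-56102824, minus strand: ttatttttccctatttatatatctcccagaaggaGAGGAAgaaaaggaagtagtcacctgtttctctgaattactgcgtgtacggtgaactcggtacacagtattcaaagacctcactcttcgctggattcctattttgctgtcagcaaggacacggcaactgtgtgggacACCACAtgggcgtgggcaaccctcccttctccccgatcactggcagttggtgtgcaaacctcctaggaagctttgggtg

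A promoter was found for 8 of the 9 genes, with 2 start sites for Plac8. GAGGAAGT was present before Mpo, Elane and Prtn3, which is 3 of the 8, and before 2.44% of all 32851 promoters cut to the same length. The shorter GAGGAA, which the longer form contains, was present before these 3, Ctsg and Plac8, against 23.3% of all promoters. CAACGG was present before the neighbours Elane and Prtn3, 34 and 39 bases after the first letter of GAGGAAGT, against 4.05% of all promoters. TGTGGT was present before Ctsg, Nkg7 and Plac8, against 14.0% of all promoters, and the C/EBP letters TTGCNNAA before Plac8 only, at its second start site, against 9.56%. The letters were chosen with these sequences in view, so the counts are descriptions. The genes with GAGGAAGT had log2 fold changes of 0.06 (Mpo), 0.11 (Elane) and 0.16 (Prtn3), and Ctsg, which lacks it in this window, had 0.31.

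Ms4a3, Nkg7 and Plac8 mark the early granulocytic stage without being granule enzymes. Ms4a3 encodes a membrane protein of the MS4A family that is typical of granulocyte-monocyte progenitors. It read 1181, 1463 and 1575 on the low-ROS and 1331, 1493 and 1672 on the high-ROS arrays. The groups overlapped widely, and replicate 1 was the lowest of both groups. The means were 1406 ± 203 and 1499 ± 171 (SD, n = 3 each), a fold change of 1.07 (interval 0.874 to 1.31, adjusted p = 0.895), and without low-ROS replicate 1 the log2 fold change turned from 0.09 to -0.02.

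Nkg7 encodes a membrane protein of cytotoxic and myeloid granules and is also a marker of natural killer and cytotoxic T cells. It read 812, 968 and 978 on the low-ROS and 806, 897 and 940.5 on the high-ROS arrays, and the groups overlapped, again with replicate 1 lowest in both. The means were 919 ± 93.1 and 881 ± 68.9 (SD, n = 3 each), a fold change of 0.960 (interval 0.796 to 1.16, adjusted p = 0.942). Without high-ROS replicate 1 the log2 fold change turned from -0.06 to 0.0033. Of 11 measured T and natural killer cell markers, 7 had the higher mean in high-ROS CMP, none passed the test, and their summed signal was 2640.1 to 3312 on the low-ROS and 2471 to 2984 on the high-ROS arrays. Among these, Ncr1 (29.7 and 28.9) was below the array medians, while Ccl5 (1236 and 1138) was well above them, and their part in the Nkg7 signal was not tested.

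Plac8 encodes a small cysteine-rich protein that is abundant in myeloid progenitors and granulocytes. It read 3154, 3216 and 3335 on the low-ROS and 3758, 3805 and 3472 on the high-ROS arrays. The groups did not overlap, and high-ROS replicate 3 was the closest to the low-ROS range. The means were 3235 ± 92.0 and 3678 ± 180.4 (SD, n = 3 each), 1.14-fold with an interval from 1.01 to 1.28 (log2 fold change 0.18 with an SE of 0.0796, unadjusted p = 0.0416, adjusted p = 0.627). In the limma fit of single probe sets the interval of the same probe set was 0.999 to 1.29 (unadjusted p = 0.0509).

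Hp encodes haptoglobin, a binder of free hemoglobin that granulocyte precursors make and later store. It read 3555, 3656 and 3622 on the low-ROS and 3799, 3571 and 3964 on the high-ROS arrays. High-ROS replicate 2 lay within the low-ROS range and the other two high-ROS arrays lay above it. The means were 3611 ± 51.3 and 3778 ± 197 (SD, n = 3 each), a fold change of 1.05 (interval 0.928 to 1.18, adjusted p = 0.881). Of 9 measured genes of the acute phase response and of heme and iron handling, none passed the test, 2 had a higher and 7 a lower high-ROS mean, and the median log2 fold change was -0.07. Several of them carried little signal. Hpx (5.06 and 6.27), Orm3 (4.94 and 3.90) and Cp (27.9 and 21.4) lay below the array medians. Saa3 (65.1 and 59.5) and Lrg1 (59.8 and 56.1), the gene at the median, were near background. That median lay between -0.14 (without low-ROS replicate 1) and -0.0112 (without low-ROS replicate 3) with 1 array left out, and was -0.16 with the log2 Gapdh ratio as a covariate. Cd163, the macrophage receptor for haptoglobin bound to hemoglobin, read 487, 535 and 323 on the low-ROS and 671, 534 and 627 on the high-ROS arrays (log2 fold change 0.46, SE 0.187, adjusted p = 0.608). The acute phase genes Orm1 (285 and 216, log2 fold change -0.38) and Orm2 (61.0 and 30.7, near background, -0.72) had adjusted p of 0.604 and 0.575.

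Calr encodes calreticulin, a calcium-binding chaperone of the endoplasmic reticulum that binds the myeloperoxidase precursor while it folds. Its brightest probe set read 3418, 3584 and 3768 on the low-ROS and 3516, 4136 and 2370.2 on the high-ROS arrays. Here 1 array decided the direction: high-ROS replicate 3 lay below all other arrays and replicate 2 above all others. The means were 3590.1 ± 175 and 3341 ± 896 (SD, n = 3 each), log2 fold change -0.14 with an SE of 0.163 (adjusted p = 0.868), and without high-ROS replicate 3 it was 0.09 (adjusted p = 0.943).

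The other 2 probe sets of Calr repeated this pattern. The second read 3267, 3589 and 3529 on the low-ROS and 3358, 3984 and 2276 on the high-ROS arrays, and the dimmest read 1558, 1624 and 1932 against 1905, 2192 and 971. On high-ROS replicate 3 the 3 probe sets stood at 66.0%, 65.7% and 57.0% of their low-ROS means. Their fold changes were 0.908, 0.903 and 0.941 in the fit of single probe sets, with adjusted p of 0.877, 0.869 and 0.952, where 0.0200% of probe sets were called. The interval of the dimmest, 0.647 to 1.37, was the widest. Probe sets of the same gene may read overlapping stretches of its transcript and are not separate replicates.

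High-ROS replicate 3 was also the array with the highest Gapdh ratio, 4.53, and with the lowest trimmed mean of all probe sets, 181 against 189 to 198 on the others. The beta-actin ratio hardly set this array apart, at 1.06 against 0.976 to 1.05 on the others. Among the 26 other chaperones and folding enzymes of the endoplasmic reticulum, 12 (46.2%) were lowest on this array, as were 34.4% of the 6289 genes with a mean signal of 200 or more. The mean of their centred log2 signals was -0.20 on it and -0.01 to 0.11 on the other arrays. Of the 9 genes described here only Calr was lowest on it, while Elane, Ms4a3 and Hp were at their highest. With the log2 Gapdh ratio as a covariate the log2 fold change of Calr was 0.27 (adjusted p = 0.806).

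**Figure D3:**
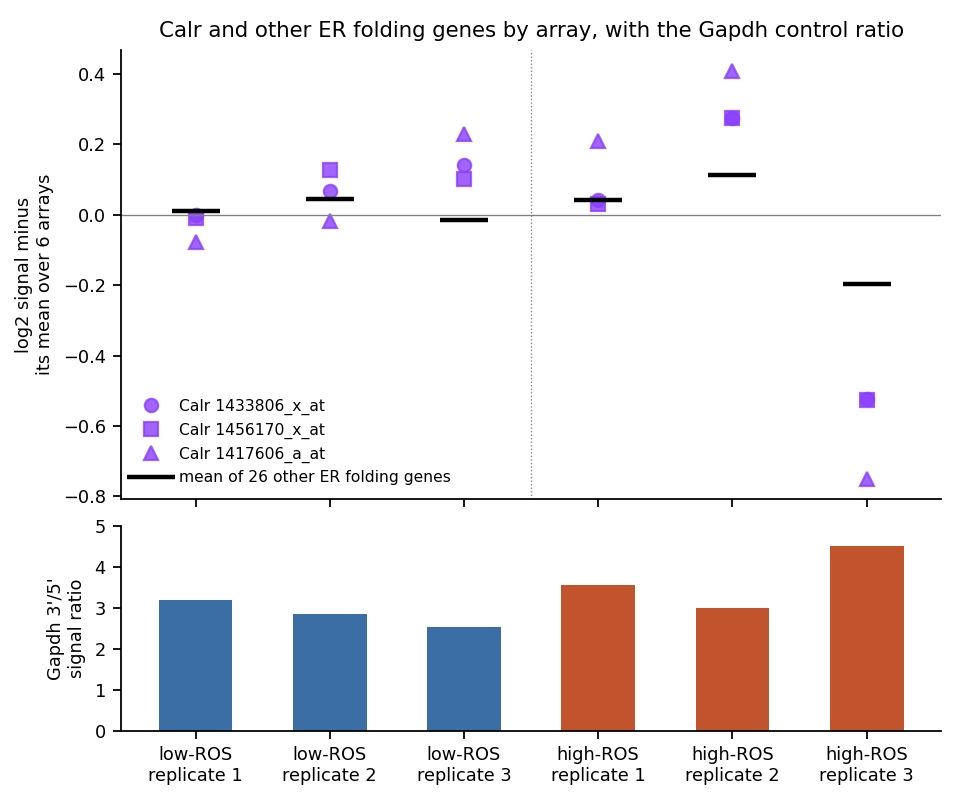
Upper panel: log2 signal (plus 16) of the 3 Calr probe sets on each array, minus each probe set's mean over the 6 arrays, with the mean of 26 other endoplasmic reticulum folding genes as a black bar. Lower panel: the Gapdh 3' to 5' ratio of each array, where high-ROS replicate 3 has the lowest Calr values and the highest ratio, 4.53.

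None of the 26 folding genes passed the test, 11 had a higher and 15 a lower high-ROS mean, and the median was -0.03. That median was 0.03 without high-ROS replicate 3, 0.01 with quantile normalization, 0.02 with array weights and 0.08 with the Gapdh covariate. Ppib, a prolyl isomerase, read 2337, 2759 and 2804 on the low-ROS and 2117, 2623 and 1410.5 on the high-ROS arrays, with the lowest value again on high-ROS replicate 3. Its log2 fold change was -0.40 (SE 0.184, adjusted p = 0.641). Prkcsh, a subunit of glucosidase II, which trims sugar chains before calreticulin binds them, read 109 ± 19.2 and 154 ± 7.27 (SD, n = 3 each), at log2 fold change 0.45 (SE 0.193, adjusted p = 0.624) and with groups that did not overlap. Hspa5, the main Hsp70 chaperone of this compartment, read 3579 ± 68.8 and 3411 ± 327 (log2 fold change -0.07, adjusted p = 0.880).

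The transcription factors known to act on granulocytic genes gave no call either. Of 14 measured, 0 passed, 5 had a higher and 9 a lower high-ROS mean, and the median log2 fold change was -0.08 (0.02 without high-ROS replicate 3, 0.0072 with array weights and 0.13 with the Gapdh covariate). Irf8, which favours monocytes over granulocytes, read 582, 737 and 574 on the low-ROS and 1215, 1086 and 775 on the high-ROS arrays. The groups did not overlap, and the log2 fold change was 0.67 (SE 0.173, adjusted p = 0.425). Lef1, a factor that regulates Cebpa in granulocyte development, read 217, 279 and 293 against 320.3, 405 and 534 (log2 fold change 0.63, SE 0.1998, adjusted p = 0.561). Myb, which binds the letters CAACGG, read 3098 ± 133 and 2920 ± 369 (SD, n = 3 each), with a log2 fold change of -0.09 (adjusted p = 0.859). Among the C/EBP and PU.1 factors, the log2 fold changes were 0.03 for Cebpa, 0.12 for Cebpb, -0.01 for Spi1 and 0.49 for Cebpd. The groups of Cebpd did not overlap, and it did not pass (unadjusted p = 0.0192, adjusted p = 0.593). Runx1 read 1719 and 1381 (log2 fold change -0.36, adjusted p = 0.694), lowest on high-ROS replicate 3, and Cbfb 1677 and 1609 (-0.09). Both had groups that overlapped. Klf5 (-0.28) and Gfi1b (-0.32) had groups apart with high-ROS CMP below, and did not pass. In the list, 3 genes had groups apart with high-ROS CMP above and 2 below, against 8.06% and 5.31% of all genes. The factors from Cebpa to Gfi1b in this paragraph were named after their values were seen.

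Genes that activate, sort or restrain granule proteins showed a median log2 fold change of -0.01 (0.03 without high-ROS replicate 3, 0.01 with quantile normalization, 0.02 with array weights and 0.14 with the Gapdh covariate). Of 23 measured, 0 passed, with 11 higher and 12 lower. Ctsc, the protease that activates elastase, proteinase 3 and cathepsin G by removing their pro-peptide, read 768 and 778 (log2 fold change 0.01, named after its value was seen). Cst7, which encodes cystatin F, an inhibitor of that protease, read 407, 444 and 406 on the low-ROS and 566, 628 and 511 on the high-ROS arrays. The groups did not overlap, at log2 fold change 0.42 (SE 0.136, adjusted p = 0.563). Stxbp2, which acts in granule release, read 1074, 1061 and 818 against 788, 819 and 497 (log2 fold change -0.50, SE 0.189, adjusted p = 0.593), and its groups overlapped. Srgn encodes serglycin, the proteoglycan core that packs the proteases, and read 4878 ± 212 and 4583 ± 112 (SD, n = 3 each; log2 fold change -0.09, adjusted p = 0.794).

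Other contents of azurophil granules and lysosomes had a median of 0.00484 with 9 of 17 measured genes higher and 8 lower, and 0 passed. This median changed sign when any of 5 arrays was left out, and was -0.08 when the probe sets of each gene were averaged and 0.09 with the Gapdh covariate. Gusb, the lysosomal beta-glucuronidase, read 551, 557 and 511 on the low-ROS and 707, 708 and 598 on the high-ROS arrays (log2 fold change 0.30, SE 0.128, adjusted p = 0.622). Man2b1, the lysosomal alpha-mannosidase, went the other way, with 1917, 1908 and 1894 against 1704, 1717 and 1238 (log2 fold change -0.31, SE 0.128, adjusted p = 0.617). Both had groups that did not overlap. Lyz1, a lysozyme with a near-identical copy in Lyz2, so that probe sets may read both, had 7924 ± 309 and 7786 ± 120.4 (SD, n = 3 each; log2 fold change -0.02).

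Secondary and tertiary granule genes and other genes of the mature neutrophil, which come on after the primary granule genes have been shut off, had a median of -0.07. Of 21 measured, 0 passed, 4 had a higher and 17 a lower high-ROS mean, and 5 had groups that did not overlap with high-ROS CMP below, against 5.31% of all genes. Cd177, a neutrophil surface protein, read 2419, 2739 and 2929 on the low-ROS and 2328, 2281 and 1466 on the high-ROS arrays (log2 fold change -0.44, SE 0.161, adjusted p = 0.593). Cxcr2, the chemokine receptor of mature neutrophils, read 740.2 ± 96.2 and 579 ± 150.0 (SD, n = 3 each; log2 fold change -0.37, adjusted p = 0.661). The means of the primary granule genes Mpo, Elane, Prtn3 and Ctsg were all higher, and those of most late genes lower, in high-ROS CMP, but none of these differences passed, and the difference between the groups of genes was not tested. The contrast covers those 4 genes only: of the other azurophil granule and lysosomal contents, 9 had a higher and 8 a lower high-ROS mean. The median of the late genes stayed below 0 in all 15 alternative settings run for it, between -0.11 and -0.02. Those settings reuse the same arrays, and genes read on the same arrays are not separate replicates.

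Receptors for granulocyte and monocyte growth factors had a median of 0.10, with 6 of 10 higher, 4 lower and 0 passed. Without low-ROS replicate 3 this median was -0.12, without high-ROS replicate 1 it was 0.0051, and with the Gapdh covariate 0.01. Csf1r, the receptor of the monocyte branch, read 1372, 1210 and 977 on the low-ROS and 1713, 1787 and 1480 on the high-ROS arrays (log2 fold change 0.49, SE 0.136, adjusted p = 0.459). Flt3, a receptor of early progenitors, read 147, 149 and 173 against 330, 274 and 146 (log2 fold change 0.56, SE 0.259, adjusted p = 0.641). Csf3r, the receptor of the granulocyte branch, read 616 and 501 (log2 fold change -0.31, unadjusted p = 0.116, named after its value was seen).

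Of 7 measured genes listed with peroxide handling in granulocytes, 0 passed, 1 was higher and 6 were lower, with a median of -0.05. With 1 array left out this median lay between -0.16 (without low-ROS replicate 3) and -0.0145 (without low-ROS replicate 1), and with the Gapdh covariate it was -0.11. Among the 6, Lpo (10.7 and 8.42) was below the array medians, and Cyp4f18 (129 and 122) is a cytochrome P450 and not a peroxide enzyme or oxidase subunit. Gpx1, a glutathione peroxidase, read 4762, 4795 and 4743 on the low-ROS and 4358, 4680.0 and 3775 on the high-ROS arrays. The groups did not overlap, at log2 fold change -0.16 (SE 0.0885, adjusted p = 0.685). Epx, the eosinophil peroxidase related to Mpo, read 3701 ± 491 and 3421 ± 510.1 (SD, n = 3 each; log2 fold change -0.12, adjusted p = 0.858).

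**Figure D4:**
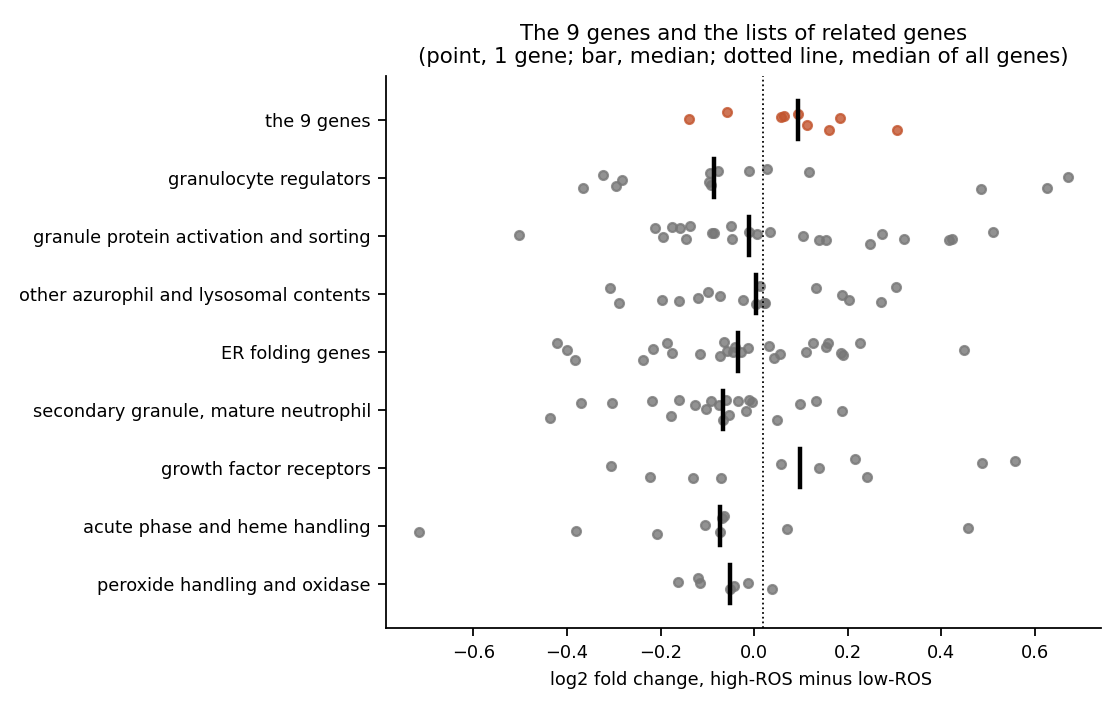
Log2 fold change (horizontal axis, high-ROS minus low-ROS) of the 9 genes (orange) and of the members of 8 lists of related genes (grey), 1 point a gene, with black bars at the medians and a dotted line at the median of all genes, 0.02. The 9 genes lie between -0.14 and 0.31, and their median is 0.09.

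The mean centred log2 signal of the 9 genes was -0.12, -0.02 and 0.01 on the low-ROS arrays and 0.01, 0.10 and 0.01 on the high-ROS arrays, so that low-ROS replicate 1 was lowest and high-ROS replicate 2 highest. The groups overlapped, with low-ROS replicate 3 (0.0147) above high-ROS replicate 3 (0.0132). With Calr left out, after its values were seen, the mean was -0.14, -0.04 and -0.0010 on the low-ROS and 0.01, 0.08 and 0.08 on the high-ROS arrays. The groups then lay narrowly apart, at -0.0010 on low-ROS replicate 3 and 0.0117 on high-ROS replicate 1. Calr was at -0.52 on high-ROS replicate 3, so leaving it out raised that array, and the separation is a description only. Low-ROS replicate 1 was the lowest array for 5 of the 9 genes, as it was for 19.2% of the 6289 genes with a mean signal of 200 or more. Among 6280 other genes with a mean signal of 200 or more, the profiles nearest to this mean, by the root mean square difference of centred log2 signals over the 6 arrays, were those of Zdhhc4 (0.0190), Naxe (0.0269), Heatr3 (0.0301), Sap30 (0.0312) and Eef1b2 (0.0318), where the median gene was at 0.183. With a profile this flat, nearness says little more than that these genes were flat as well.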

How the data were processed

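RNA of sorted CMP was amplified and biotin-labelled with a NuGEN Ovation kit, per the labels' protocols, for hybridisation to one-colour mouse arrays. The deposited table holds a linear intensity for each probe set on each array. The authors' summarisation of probes and scaling of arrays are not stated in the labels or the table.

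Of 45101 probe sets, 34958 had 1 gene symbol in the platform's annotation, and the one with the highest mean signal stood for each of 18194 genes. Log2 of the intensity plus 16 was compared between 3 high-ROS and 3 low-ROS arrays, with no further normalization, by limma 3.58.1 in R 4.3.3 (eBayes with a mean-variance trend, 2-sided, Benjamini-Hochberg over all genes, threshold 0.05). Other probe sets of a gene come from the same fit over all 34958. An exact permutation test of 3 against 3 cannot go below 0.1. The number of arrays limits the precision.

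The genes, the 8 lists and the alternatives were chosen with earlier results of these data known. Named by rule were the 9 genes, from each list the 2 genes of smallest p and the brightest gene, and the 5 nearest profiles. Simulated data with 200 changed genes gave 57.8% of log2 changes of 1 and 94.9% of those of 2 in the right direction, with 4.74% false calls. The simulated noise was independent between genes and arrays, without effects shared across an array. Changes as small as those of the 9 genes, at most 0.31, were not simulated, so these rates do not describe them. Figures were drawn with matplotlib 3.10.9.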

Additional observations from a re-analysis of the deposited data

How the results depend on the processing

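None of the 9 genes was called in any of the 16 alternatives (0 in each), where their smallest adjusted p was 0.308, for Ctsg. Mpo, Elane, Prtn3, Ctsg, Plac8 and Hp had a log2 fold change above 0 in each, but the small ones moved by over 1.5 times. Elane went from 0.11 to 0.03 without high-ROS replicate 3 and 0.01 under the Gapdh covariate, Hp from 0.06 to 0.03 and 0.0025, and Mpo from 0.06 to 0.02 without high-ROS replicate 2, 0.03 without low-ROS replicate 1 and 0.16 under the covariate. Ctsg was 0.485 under the covariate, against 0.31. Ms4a3 had a log2 fold change of -0.020 with array weights, and with 1 array left out it lay between -0.024 (without low-ROS replicate 1) and 0.18. With 1 array left out Nkg7 lay between -0.14 and 0.0033 (without high-ROS replicate 1), and Calr between -0.31 and 0.088 (without high-ROS replicate 3), with 0.27 under the Gapdh covariate. The median of the 9 genes was 0.16 under that covariate and 0.05 to 0.15 with 1 array left out. With quantile normalization it was 0.15, against 0.03 over all genes. That setting raised the log2 fold change of each of the 9 genes, Hp to 0.11 and Ctsg to 0.36.

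The 3 higher and 8 lower calls over all genes depended more on the setting. They were 0 and 5 with a pseudocount of 64, 0 and 5 without a mean-variance trend, 0 higher with 1 test per probe set, 5 and 13 among genes above the median signal, 13 and 19 with array weights, and 0 and 3 with the Gapdh covariate. With 1 array left out they were 0 to 0 higher and 1 to 7 lower; the cause was not tested. With the replicate number as a block they were 0 and 5, and no call among the 9 genes changed. Whether the replicate numbers mark a shared sort or batch is not given in the labels and was not settled by the values: deviations of same-numbered arrays correlated by 0.119, 0.095 and 0.002, and 4 of 6 arrays correlated best with their own number.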
